A study of Mus musculus with 3 samples.

Results

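The cerebellin and C1q-like synaptic organizers were followed as 8 of the 31053 genes counted in single cells of the developing mouse NCx (neocortex). They were taken by name, as the secreted ligands Cbln1, Cbln2, Cbln4, C1ql1 and C1ql3, the receptor gene Grid1, and the neurexin genes Nrxn2 and Nrxn3, and all 8 were present in the 3 count matrices. The cells were GFP+ cells sorted from Sst-Cre;RCE mice, in which Cre expressed from the Sst gene switches on a lasting GFP reporter, so a cell that once expressed Sst stays labelled. Tissue of 6 animals was pooled at embryonic day 16.5 (E16.5), of 3 animals at postnatal day 1 (P1), and of 3 animals at P5, to give 1 library per stage of the same genotype, without any treatment. A Percoll step was used at P1 and P5 but not at E16.5, and trypsin and DNase were added at P5, so stage, tissue preparation, and library cannot be told apart.

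Cerebellins and C1q-like proteins carry a C1q domain, are secreted by neurons, and act as bridges across the synapse. Cerebellins bind presynaptic neurexins that include the insert of splice site 4, and they bind postsynaptic delta glutamate receptors such as GluD1 (Grid1). The best known case is Cbln1, which holds parallel fiber synapses onto Purkinje cells in the cerebellum. C1q-like proteins bind the adhesion receptor Bai3 (Adgrb3), and some bind neurexin-3. Whether a neurexin transcript includes the insert cannot be read from these counts.

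Cells were kept with more than 700 detected genes and under 10% of UMIs (unique molecular identifiers, 1 per captured mRNA molecule) from mitochondrial genes. This left 3952 of 4478, 2501 of 4440, and 2980 of 3406 cells at the successive stages, with a median of 5577, 3293, and 3935.5 UMIs per cell. Cells with at least 1 Nos1 UMI, the marker of long-range projecting (LRP) inhibitory neurons, numbered 67, 434, and 547 and are called Nos1 cells. Cells with an Lhx6 UMI (a transcription factor of interneurons from the medial ganglionic eminence) and no Nos1 UMI numbered 3269, 1606, and 1874 and are called Lhx6 cells. The median depth was 7863, 3704.5, and 3073 UMIs in the Nos1 cells and 5808, 3811, and 4752.5 UMIs in the Lhx6 cells. The libraries shared 10 cell barcodes, 4 of them in kept cells. Sst was detected in 82.1%, 90.8%, and 96.0% of the Nos1 cells and in 76.3%, 71.0%, and 70.9% of the Lhx6 cells. Markers of glia, endothelium, and microglia summed to at most 1 UMI in the Nos1 cells of any library. Excitatory markers (Neurod2, Neurod6, Slc17a6, Slc17a7) did differ. They summed to 562, 140, and 5.60 CPM (UMIs of a gene per 1000000 UMIs of the group) in the Nos1 cells, with 4, 4, and 3 of the 4 markers present, and to 7.11, 7.24, and 2.16 CPM in the Lhx6 cells. The only marker at 0 UMIs was Slc17a6, in both groups at P5. Of the Nos1 cells, 14, 15, and 3 had at least 2 excitatory marker UMIs and more of them than of Gad1, Gad2, and Lhx6 together. In all, 44, 44, and 27 kept cells met this rule, and they serve below as excitatory cells, with a median of 12095, 5436.5, and 3561 UMIs. Sst was still detected in 43.2%, 22.7%, and 7.41% of them.

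Cbln2, a cerebellin that binds both neurexins and delta receptors, was higher in the Nos1 cells than in the Lhx6 cells in all 3 libraries. In the Nos1 cells it reached 125 CPM (95% interval 97.8–156), 64.5 CPM (53.8–76.7), and 77.4 CPM (65.6–90.8), in the order E16.5, P1, P5 used for all such series of values. The Lhx6 cells of the same libraries stood at 10.2 CPM (8.86–11.6), 7.62 CPM (5.83–9.78), and 13.9 CPM (11.6–16.6). The intervals of both groups lay apart in each library. The intervals in this text cover counting error only, since UMIs of 1 library hold no spread between animals, and with 1 library per stage no test was made.

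The log2 ratio of Cbln2 (Nos1 over Lhx6 cells, after adding 1 CPM to both) was 3.49 (3.21–4.0), 2.93 (2.63–3.55), and 2.39 (2.13–2.82) by stage. Each interval here is that of the plain ratio of the counts, and the added 1 CPM pulls the ratios of rare genes toward 0. A Cbln2 UMI was found in 22.4% (13.1–34.2), 16.8% (13.4–20.7), and 21.6% (18.2–25.3) of the Nos1 cells. The share in Lhx6 cells was 3.61%, 2.62%, and 5.34%. With every cell thinned to 2000 UMIs, the share was 10.8%, 12.1%, and 14.5% in 65, 356, and 414 Nos1 cells, against 1.06%, 1.29%, and 2.39% in 3100, 1315, and 1673 Lhx6 cells. The excitatory cells held 1, 2, and 0 Cbln2 UMIs, and 1 cell, 1 cell, and 0 of 27 cells had one, the last of which allows up to 11.1% of cells with a UMI (3 of 27).

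At E16.5 the high mean came from few cells. A single Nos1 cell held 24 Cbln2 UMIs, and the 5 highest cells held 53 of the 74 UMIs. Without those 5 cells the level was 39.3 CPM (24.3–60.1), which still lay above the Lhx6 cells. With the 5 cells kept and the Nos1 cells of the excitatory rule left out, it was 181 CPM (142–227), a log2 ratio of 4.02 (3.75–4.54). At P1 and P5 the 5 highest cells held 29 of 127 and 16 of 152 UMIs, and the level in the others was 50.4 and 69.9 CPM.

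**Figure D1:**
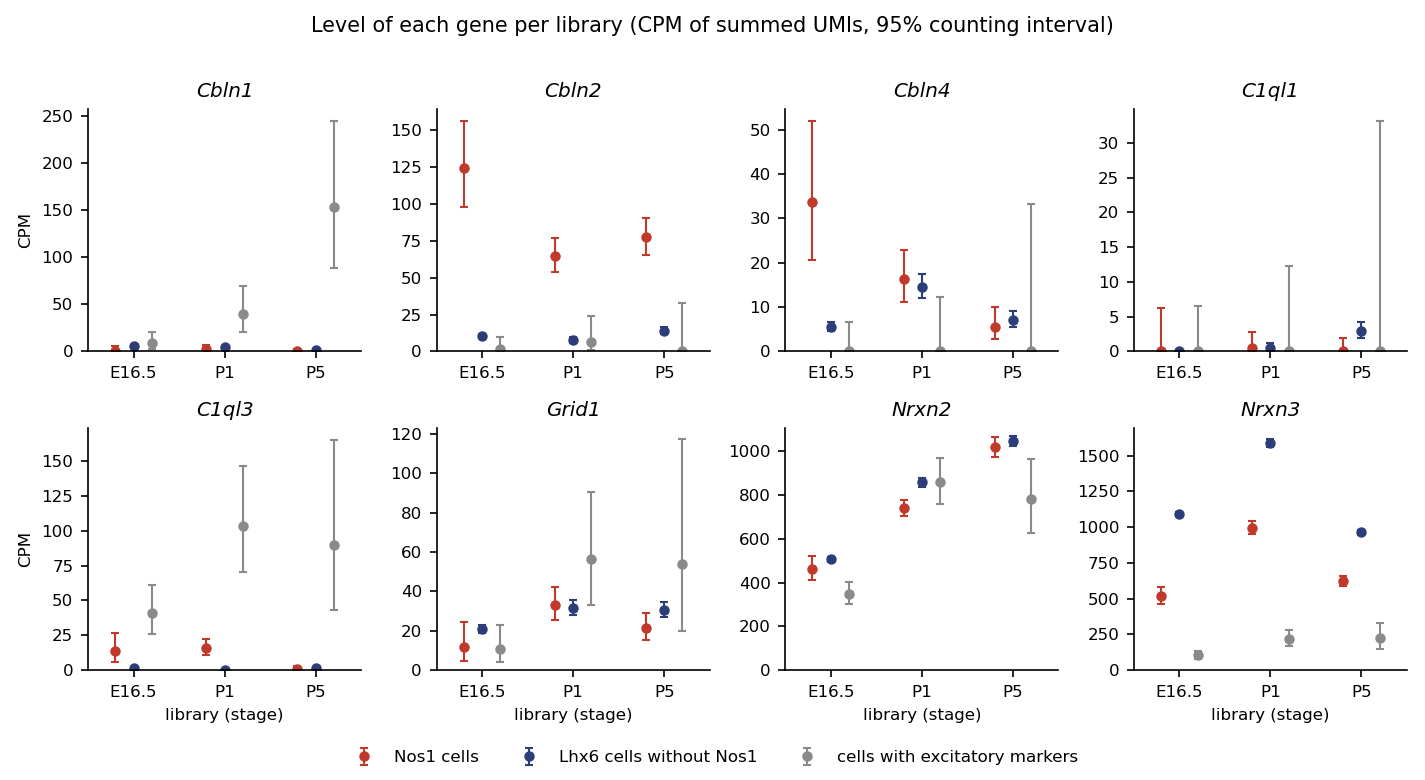
Level of each gene in CPM (linear axes from 0, a different scale per panel) for the 3 libraries, in Nos1 cells (red), Lhx6 cells without Nos1 (blue), and cells with excitatory markers (grey); points are summed UMIs and bars the exact 95% Poisson interval. Cbln2 is higher in the Nos1 cells in each library, Nrxn3 is lower in them, and Cbln4 separates the groups at E16.5 but not at P1 or P5.

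Cbln4, which binds neurexins but is a weak ligand of the delta receptors, had a different course. At E16.5 it stood at 33.7 CPM in the Nos1 cells (20.6–52.0, 20 UMIs in 13 cells) and at 5.60 CPM in the Lhx6 cells (4.64–6.71), a log2 ratio of 2.39 (1.82–3.28). The 5 highest Nos1 cells held 12 of the 20 UMIs, and the others reached 14.5 CPM (6.24–28.5), a range that meets that of the Lhx6 cells. Those others include the Nos1 cells of the excitatory rule, which held 0 Cbln4 UMIs and so lower this level. With only the cells of that rule left out, the Nos1 group stood at 48.8 CPM (29.8–75.4), a log2 ratio of 2.91 (2.36–3.81). At P1 the level was 16.2 CPM (11.1–22.9) against 14.5 CPM (12–17.4), and at P5 it was 5.60 CPM (2.80–10.0) against 7.13 CPM (5.51–9.07). The log2 ratios were then 0.16 (−0.45 to 0.74) and −0.30 (−1.42 to 0.58), so no difference was detectable at this depth.

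The share of Nos1 cells with a Cbln4 UMI was 19.4% (10.8–30.9), 6.68% (4.52–9.46), and 1.65% (0.755–3.1), and that of Lhx6 cells was 2.29%, 4.61%, and 2.67%. Thinned to 2000 UMIs, the shares were 3.08%, 3.09%, and 0.966% against 0.806%, 2.36%, and 1.26%. At E16.5 the thinned share rests on 2 cells. No Cbln4 UMI was found in the excitatory cells of any library.

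Cbln1, the founding cerebellin, was sparse in both groups. The Nos1 cells held 0, 6, and 1 UMIs, and the Lhx6 cells held 126, 35, and 15. The level in Lhx6 cells was 5.93 CPM (4.94–7.07), 4.37 CPM (3.04–6.08), and 1.62 CPM (0.907–2.67), detected in 3.64%, 1.99%, and 0.800% of the cells. Counted at the floor of 3 UMIs, the Nos1 cells were at least 1.18-fold lower at E16.5, but the exact interval of the ratio still reached equal levels. The excitatory cells had 8.86, 39.9, and 153 CPM, and at P5 they held 51.5% of all Cbln1 UMIs in 27 cells. At P1, 5 of the 6 UMIs in Nos1 cells lay in 3 cells that met the excitatory rule. Without such cells the Nos1 group stood at 0.549 CPM (0.0139–3.06) and the log2 ratio was −1.79.

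C1ql3, a C1q-like protein found mostly with glutamatergic neurons, appeared higher in the Nos1 cells at E16.5 and P1, and nearly all of these UMIs lay in excitatory cells. The Nos1 cells held 8, 31, and 1 UMIs, and the Lhx6 cells held 27, 3, and 13. The log2 ratios were 2.67 (2.06–4.58), 3.61 (3.71–7.75 without the added 1 CPM), and −0.67 (−6.87 to 1.27). At P1 all 31 UMIs came from 3 cells of the excitatory rule, 17 of them from a single cell, and at E16.5 7 of the 8 came from 1 such cell. Without those cells the Nos1 group held 1, 0, and 0 UMIs, which is at or below the floor of 3 UMIs. Of all C1ql3 UMIs, 50.0%, 88.6%, and 35.7% lay in the 44, 44, and 27 excitatory cells.

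C1ql1, known as the climbing fiber ligand of Purkinje cells, was close to absent before P5. The kept cells held 1, 7, and 41 UMIs. At P5 the Lhx6 cells had 27 UMIs in 17 cells, or 2.92 CPM (1.92–4.24), and the Nos1 cells had none in 547 cells, which allows up to 0.548% of cells with a UMI (3 of 547) and does not limit how many express the gene. Counted at the floor of 3 UMIs they were at least 1.91-fold lower, and the exact interval of the log2 ratio ended nearer to equal levels, at −0.53. No excitatory cell held a C1ql1 UMI.

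Grid1 encodes GluD1, the delta receptor of the forebrain. It stood at 11.8 CPM (4.74–24.3, 7 UMIs), 33.0 CPM (25.5–42.1), and 21.4 CPM (15.4–28.9) in the Nos1 cells. The Lhx6 cells had 20.9, 31.6, and 30.7 CPM. The log2 ratios were −0.78 (−2.15 to 0.23), 0.06 (−0.35 to 0.46), and −0.50 (−1.02 to −0.05), and at P5 the interval narrowly excluded equal levels. A Grid1 UMI was seen in 8.96%, 12.4%, and 6.58% of the Nos1 cells and in 11.8%, 13.3%, and 13.6% of the Lhx6 cells. Thinned, the shares were 3.08%, 6.18%, and 3.38% against 4.26%, 5.93%, and 5.50%. Excitatory cells also held Grid1, at 10.6, 56.6, and 54.0 CPM, with a UMI in 11.4%, 25.0%, and 22.2% of them.

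Both neurexin genes were detected in most cells. Nrxn3, with 80.6%, 91.5%, and 77.9% of the Nos1 cells positive against 99.0%, 98.8%, and 93.3% of the Lhx6 cells, was lower in the Nos1 cells. Its level there was 522 CPM (465–583), 995 CPM (952–1040), and 621 CPM (587–657). The Lhx6 cells had 1092 CPM (1078–1106), 1589 CPM (1561–1617), and 963 CPM (943–983), and no interval met its counterpart. The log2 ratios were −1.06 (−1.23 to −0.90), −0.67 (−0.74 to −0.61), and −0.63 (−0.72 to −0.55). Excitatory cells held less, at 103, 220, and 225 CPM. Without the Nos1 cells of the excitatory rule, the E16.5 level was 735 CPM (654–822) and the log2 ratio was −0.57 (−0.74 to −0.41), no longer past 2-fold, while P1 and P5 gave −0.59 and −0.63. The thinned shares were 64.6%, 77.8%, and 69.6% of Nos1 cells against 87.9%, 93.8%, and 80.2% of Lhx6 cells.

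Nrxn2 barely separated the groups. It stood at 463 CPM (410–521), 740 CPM (702–779), and 1020 CPM (976–1065) in the Nos1 cells, and at 505, 857, and 1046 CPM in the Lhx6 cells. The log2 ratios were −0.13, −0.21, and −0.04, and the interval excluded 0 at P1 alone (−0.30 to −0.13). Excitatory cells had 349, 858, and 782 CPM. A Nrxn2 UMI was found in 94.0%, 85.0%, and 88.1% of the Nos1 cells and in 88.7%, 88.5%, and 94.2% of the Lhx6 cells. Thinned to 2000 UMIs, 56.9%, 73.6%, and 82.6% of the Nos1 cells and 60.6%, 76.1%, and 86.9% of the Lhx6 cells held a Nrxn2 UMI.

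**Figure D2:**
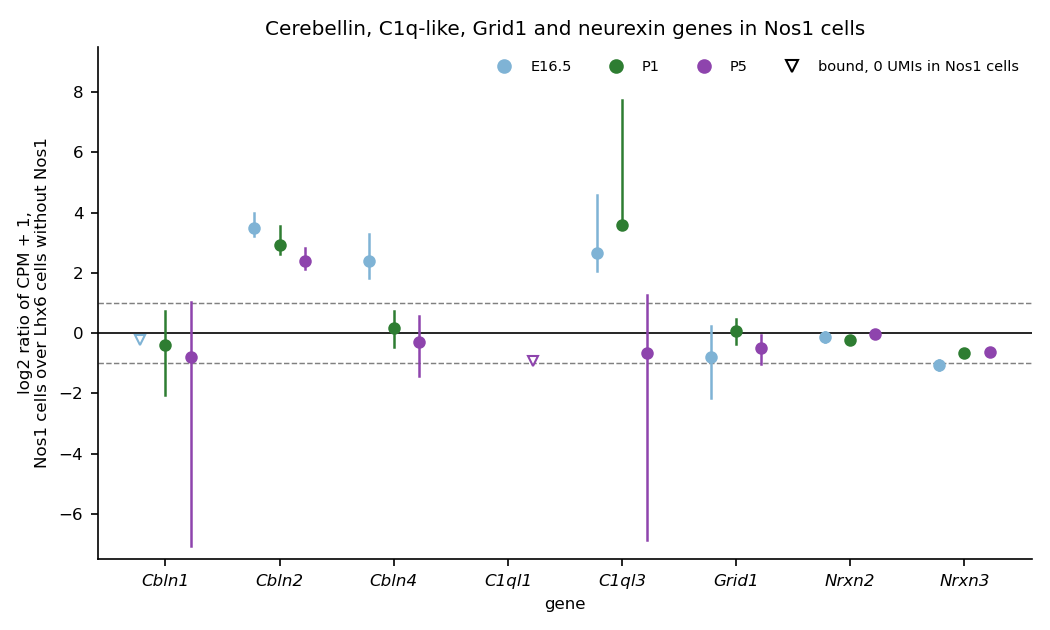
Log2 ratio of CPM + 1 in Nos1 cells over Lhx6 cells without Nos1 for each gene (x axis) and library (colour); bars are the exact 95% intervals of the plain count ratio, dashed lines mark 2-fold, open triangles are bounds from the floor of 3 UMIs, and genes with under 10 UMIs in a library are left out. Cbln2 lies above 2-fold in all 3 libraries, Cbln4 at E16.5 alone, and the C1ql3 points at E16.5 and P1 rest on cells with excitatory markers.

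Counted as a list, 3 of the 7 genes with at least 10 UMIs were over 2-fold higher in the Nos1 cells at E16.5 (Cbln2, Cbln4, C1ql3), against 6.45% of all 13574 genes with as many UMIs. At P1 it was 2 of 7 (Cbln2, C1ql3; 4.33% of all genes) and at P5 1 of 8 (Cbln2; 4.22%). C1ql3 passed the minimum of 10 UMIs at P1 through 3 excitatory cells among the Nos1 cells, and without such cells the counts were 2 at E16.5 and 1 at P1. Over 2-fold lower were 2 of 7 (8.69% of all genes), 0 of 7 (3.72%), and 1 of 8 (7.08%). With groups at 0 UMIs set to 3 UMIs, Cbln1 at E16.5 and C1ql1 at P5 fell inside 2-fold, and Nrxn3 at E16.5 was the single gene left. All genes then gave 3.8%, 2.88%, and 5.67%. The median log2 ratio over the list was −0.13, 0.06, and −0.57, and over all genes −0.05, −0.03, and −0.07. With so few genes these shares describe the list and do not set it apart.

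The levels also moved between the libraries. In the Lhx6 cells Nrxn2 was higher at each later stage, with a log2 ratio of P1 to E16.5 of 0.76 (detected genes as a whole had a median of 0.16), of P5 to P1 of 0.29, and of P5 to E16.5 of 1.05 (1.01–1.09). In the Nos1 cells the last ratio was 1.14 (0.96–1.33). Nrxn3 peaked at P1 in both groups. From E16.5 to P1 its log2 ratio was 0.54, and from P1 to P5 it was −0.72, in the Lhx6 cells, and 0.93 and −0.68 in the Nos1 cells. Grid1 was higher at P1 than at E16.5, by 0.57 in the Lhx6 cells (0.37–0.82) and by 1.41 in the Nos1 cells (0.36–2.86, from 7 UMIs at E16.5), and it then stayed at 30.7 CPM in the Lhx6 cells. Leaving out the Nos1 cells of the excitatory rule narrowed these gaps from E16.5 in the Nos1 cells. Nrxn2 was then 534 CPM at E16.5 and 1020 CPM at P5. Nrxn3 was 735 CPM at E16.5 and 1052 CPM at P1, and Grid1 was 14.6 CPM and 30.2 CPM.

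Cbln4 in the Lhx6 cells was higher at P1, with a log2 ratio of 1.23 (0.99–1.75), and lower again at P5, at −0.93 against P1 (−1.48 to −0.57). The first ratio was 0.34 in cells with over 1000 genes and under 5% mitochondrial UMIs, which is within 2-fold. In the Nos1 cells its ratio of P1 to E16.5 was −1.01 (−1.90 to −0.17), but the size rests on the 5 highest E16.5 cells. Without the 5 highest cells of each library, the levels were 14.5 CPM at E16.5 (6.24–28.5) and 12.4 CPM at P1 (7.92–18.4), with overlapping intervals. At P5 the ratio to P1 was −1.39 (−2.67 to −0.51). Cbln2 in the Nos1 cells was −0.94 at P1 (−1.37 to −0.52), but most of its E16.5 UMIs lay in 5 cells. Without the 5 highest cells of each library the levels were 39.3, 50.4, and 69.9 CPM, so E16.5 was no longer the highest. These levels include the Nos1 cells of the excitatory rule, which held 0 Cbln2 UMIs and so lower them. With only the cells of that rule left out, Cbln2 was 181, 69.7, and 77.7 CPM. The order of the stages thus depends on which cells are left out. Within the Lhx6 cells Cbln2 stayed within 2-fold in the main setting, with −0.38 for P1 over E16.5, 0.79 for P5 over P1, and 0.42 for P5 over E16.5. The direction from E16.5 to P1 reversed under other filters. The ratios of P5 to P1 and of P5 to E16.5 reached 1.09 and 1.17 under other settings, past 2-fold. Cbln1 in the Lhx6 cells was lower at P5 than at E16.5, with −1.40 (−2.75 to −1.10), and C1ql1 was higher, with 27 UMIs against 1. The ratio of these last counts has an interval on the log2 scale from 3.35 to 11.3.

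As counts over 2-fold in the Lhx6 cells, from E16.5 to P1 1 of 7 genes was higher (Cbln4; 10.3% of all genes) and 0 were lower (3.25%). From P1 to P5 1 of 8 was higher (C1ql1; 8.86%) and 1 lower (Cbln1; 9.91%). Both calls were lost under other settings, where the log2 ratios came down to 0.30 and −0.31. From E16.5 to P5 2 of 8 were higher (C1ql1, Nrxn2; 17.8%) and 1 lower (Cbln1; 11.8%). Among the Nos1 cells, from E16.5 to P1 1 of 6 was higher (Grid1; 15.9%) and 1 lower (Cbln4; 6.04%). From P1 to P5 0 of 6 were higher (7.61%) and 2 lower (Cbln4 and C1ql3; 12.8%), and from E16.5 to P5 1 of 5 was higher (Nrxn2; 18.2%) and 1 lower (Cbln4; 14.8%). C1ql3 passed the minimum of 10 UMIs and the 2-fold mark only through 3 excitatory cells, which held all 31 of its P1 UMIs in Nos1 cells. The higher calls of Grid1 and Nrxn2 in the Nos1 cells rest in part on E16.5 cells of the excitatory rule. Without such cells Nrxn2 was within 2-fold (534 CPM at E16.5 and 1020 CPM at P5). Grid1 was then close to 2-fold (14.6 CPM at E16.5 and 30.2 CPM at P1). Single genes set these counts, and they do not set the list apart. The number of Nos1 cells also differed between the libraries, and which cells carry a Nos1 UMI depends on how much Nos1 each cell expressed at that stage.

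Whether Cbln2 and Cbln4 exclude each other was asked next, over all kept cells. At E16.5 they did not. Of 161 cells with Cbln2 and 102 with Cbln4, 25 held both, while independent genes would give 4.16 cells, a ratio of 6.02 (3.89–8.88). Cbln4 was found in 15.5% of the cells with Cbln2 (10.3–22.1) and in 2.03% of those without (1.61–2.53). Deep cells find more genes of every kind, and the 25 cells had a median of 10173 UMIs against 5502.5 in cells with neither. Over all genes found in at least 20 cells, the ratio with Cbln2 had a median of 1.36, and 15.4% of genes reached 2. Thinned to 2000 UMIs, that median was 0.982 and 11.7% of genes reached 2, and the pair itself gave 5 cells against 0.498, a ratio of 10.0 (3.26–23.4).

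At P1, 8 cells held both against 6.19 for independent genes, a ratio of 1.29 (0.558–2.55), and 5.02% of genes reached 2. At P5 it was 4 against 5.96, a ratio of 0.671 (0.183–1.72), and 2.19% of genes reached 2. Cbln4 was found in 5.84% of the cells with Cbln2 against 4.44% of those without at P1, and in 1.67% against 2.55% at P5. After thinning, 1 cell and 0 cells held both, against 1.83 and 1.42, and 5.99% and 4.42% of genes reached 2. Neither exclusion nor joint expression was detectable at P1 or P5 at this depth.

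**Figure D3:**
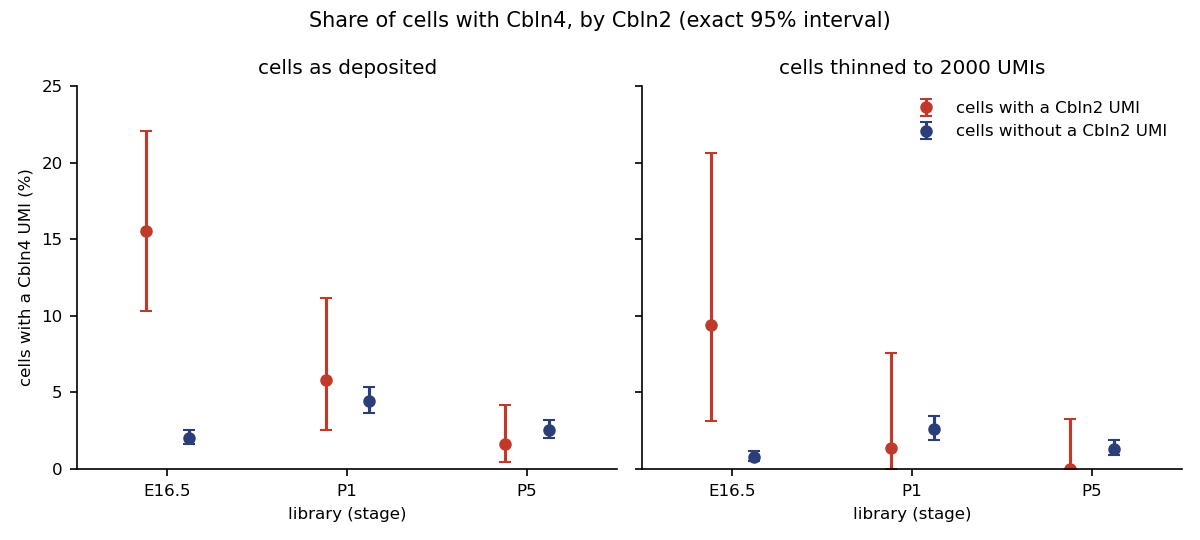
Share of cells with a Cbln4 UMI (y axis, percent) among cells with (red) and without (blue) a Cbln2 UMI, per library, with all UMIs (left) and after thinning each cell to 2000 UMIs (right); bars are exact 95% Clopper-Pearson intervals. The shares lie apart at E16.5 (15.5% and 2.03% with all UMIs) and their intervals overlap at P1 and P5.

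The 25 E16.5 cells with both cerebellins were split between kinds of cells. Sst was found in 100% of them and Lhx6 in 92.0%. Nos1 was found in 20.0% and the transcription factor gene Dach1 in 32%, against 1.18% and 2.34% of the cells with neither. Mef2c, a transcription factor of maturing interneurons, was found in 44.0% against 88.0%, and the migration receptor Cxcr4 in 0% against 33.6%. The excess was also present outside the Nos1 cells. In the Lhx6 cells without Nos1, 18 cells held both against 2.71 (ratio 6.65, 3.94–10.5), and in cells with neither a Nos1 nor a Pou3f2 UMI it was 17 against 3.02 (5.64, 3.28–9.02). In the 67 Nos1 cells alone it was 5 against 2.91 (1.72, 0.558–4.01).

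Other pairs were counted in the Lhx6 cells. At E16.5, Cbln2 was found in 7 of the 17 Lhx6 cells with C1ql3, against 0.614 for independent genes (ratio 11.4, 4.59–23.5). This value rests on 7 cells of 1 library and on unequal depth. After thinning only 3 Lhx6 cells held a C1ql3 UMI, too few to repeat it. Over all kept E16.5 cells, 15.4% of genes reached a ratio of 2 with Cbln2 before thinning. Pairs of Nrxn2 with Nrxn3, and of either with Grid1, lay between 1.00 and 1.07 times the independent number, a ratio that genes found in most cells hold near 1. Thinned to 2000 UMIs, they lay between 0.849 and 1.09, with every interval including 1.

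Markers of known Sst neuron types were then used to split all cells with an Lhx6 UMI. These included the Nos1 cells with Lhx6, and the marker groups overlap. The splits are therefore not independent of each other or of the Nos1 comparison above. For Cbln2, 11 of 17 markers left at least 10 Cbln2 UMIs in the marker cells of every library. It was over 2-fold higher in all 3 libraries in cells with Sst (4.61-, 5.79-, and 2.53-fold), Nos1 (16.7, 7.87, and 5.12), Chodl (3.97, 5.88, and 4.92), and Pou3f2 (3.30, 5.09, and 4.63). Chodl marks LRP neurons in the adult cortex, and Pou3f2 is a transcription factor gene. Among all genes, 0.665%, 1.18%, 0.985%, and 0.810% passed the same mark. Cbln2 was over 2-fold lower in cells with Mef2c, at 9.74 against 49.1, 10.2 against 84.5, and 13.0 against 71.4 CPM (0.712% of all genes). The remaining markers passed in neither direction. Npy, another LRP marker, gave 2.89-, 2.28-, and 1.25-fold, Reln 1.03, 0.486, and 0.602, and Nr2f2 0.619, 0.773, and 1.34. Erbb4 gave 0.477-, 0.419-, and 0.507-fold, Cort 1.31, 0.534, and 0.321, and Rbp4 0.672, 0.525, and 0.484. At E16.5, Cbln2 in Sst cells stood against 10 UMIs in cells without Sst, and at P1 against 5.

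Cbln4 passed for none of its 9 markers, and its ratios differed between the libraries. These ratios are given without intervals, and a change of partner markers with stage was not tested. In cells with Etv1, a factor expressed in part of the Martinotti cells, it was 1.05-fold (6.65 against 6.29 CPM), 2.75-fold (35.9 against 12.4 CPM), and 3.07-fold (19.6 against 5.71 CPM). With the other Martinotti markers that could be scored, it was 0.833-, 1.41-, and 1.55-fold (Reln) and 0.985-, 2.15-, and 0.739-fold (Nr2f2). In cells with Npy it was 3.31-, 3.06-, and 1.77-fold. With Mef2c it was 0.132-fold at E16.5 (3.57 against 33.7 CPM) and then 0.913- and 1.07-fold. Cbln1 (4 markers), Grid1 (12), Nrxn2 (17), and Nrxn3 (17) passed for none. Nrxn3 ran from 0.586- to 1.71-fold over all markers and libraries, lowest with Tac1 and highest with Reln, both at P5. Nrxn2 ran from 0.738- to 1.35-fold. C1ql1 and C1ql3 had too few UMIs for any marker.

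**Figure D4:**
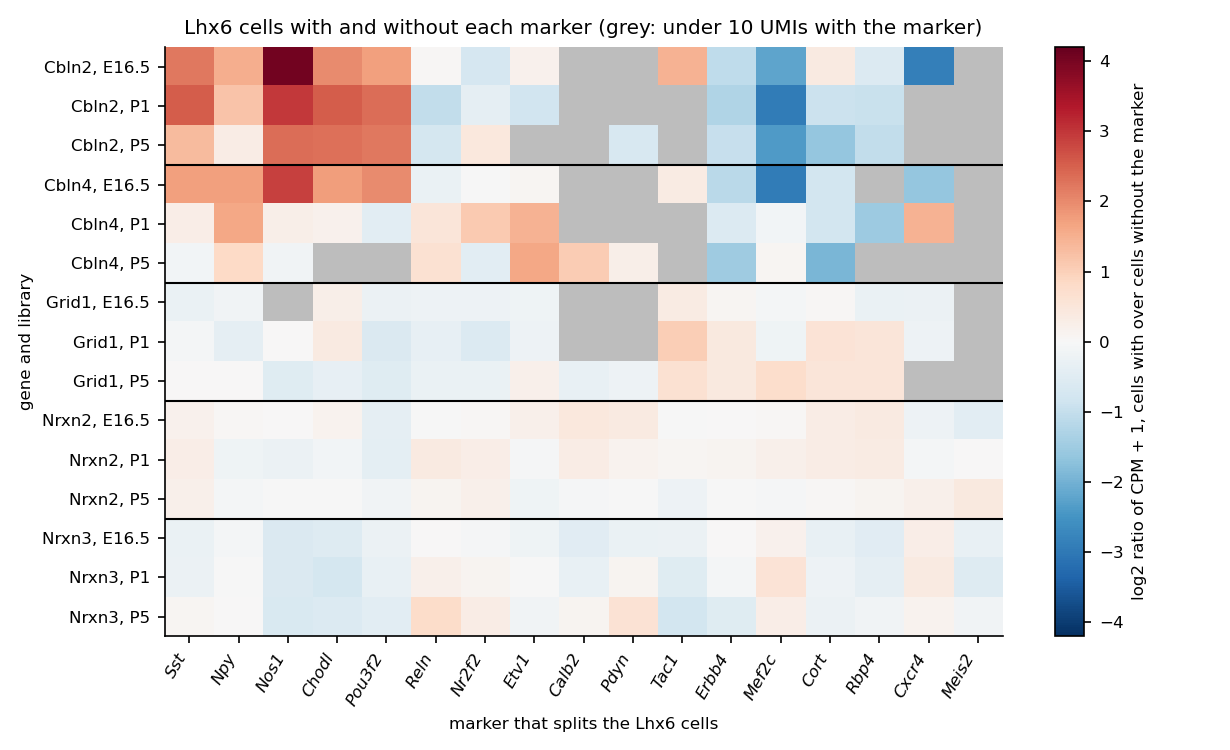
Log2 ratio of CPM + 1 in Lhx6 cells with each marker over those without (colour, red higher and blue lower), for 5 genes in 3 libraries (rows) and 17 markers (columns); grey fields have under 10 UMIs in the marker cells. Cbln2 passes 2-fold in all 3 rows for Sst, Nos1, Chodl, and Pou3f2 (red) and Mef2c (blue), but not for Npy. Cbln4 turns red with Etv1 at P1 and P5 but passes in all 3 rows for no marker, and Nrxn2 is pale throughout.

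The Nos1 cells were also divided by Dach1 and by Lypd1, a modulator of nicotinic receptors. At P1, 98 cells held Dach1 without Lypd1 and 55 held Lypd1 without Dach1, with a median of 3955 and 5059 UMIs. Cbln2 stood at 122 CPM in the Dach1 cells (90.8–159) and 27.9 CPM in the Lypd1 cells (12.7–52.9), or 29.8 CPM (13.6–56.5) without the 1 Lypd1 cell of the excitatory rule. Cbln4 stood at 42.1 CPM in the Dach1 cells (24.9–66.5, 18 UMIs in 17 cells), and the Lypd1 cells held no Cbln4 UMI, which leaves a level of up to 11.4 CPM. At P5, 27 Dach1 cells and 221 Lypd1 cells had 102 CPM (48.8–187) and 67.1 CPM (50.8–87.0) of Cbln2, and 2 UMIs and 1 UMI of Cbln4. At E16.5 a single cell was of the Lypd1 kind. The 22 Dach1 cells then had 140 CPM of Cbln2 (87.7–212) and 82.7 CPM of Cbln4 (44–141). Most Nos1 cells (43, 278, and 284 by library) held neither gene. Their Cbln2 level was 67.8 CPM (45.1–98), 54.4 CPM (41.9–69.3), and 75.2 CPM. The Cbln2 interval of these cells overlapped that of the Dach1 cells at E16.5. It overlapped that of the Lypd1 cells alone at P1, and both at P5. Cbln4 in the cells with neither gene was 14.5, 11.7, and 7.52 CPM. Nrxn3 was 736 CPM in the Dach1 cells and 941 CPM in the Lypd1 cells at P1, and 540 and 598 CPM at P5 with overlapping intervals.

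Genes with a pattern most like that of a member were taken among 10051 genes, as those with the largest lowest log2 ratio over the 3 libraries between cells with an Lhx6 UMI that had and lacked the member (5 CPM added). For Cbln2 they were Nos1 (lowest log2 ratio 2.13), the neuropeptide gene Npy (1.77), and Dach1 (1.58). The cells ranked here include Nos1 cells, so the place of Nos1 restates the higher Cbln2 of the Nos1 cells. Npy and Dach1 were ranked over the same cells, so their places are not independent of it. Npy stood at 17552 CPM in cells with Cbln2 and 4683 CPM in those without at P1. For Cbln4 they were the heparan sulfate sulfotransferase gene Hs3st4 (1.41), Dach1 (1.01), and Lingo1 (0.94), an inhibitor of neurite growth. The value for Dach1 is that of P5 and rests on 5 Dach1 UMIs in 58 cells with Cbln4. Hs3st4 stood at 30.6 against 7.56, 21.8 against 5.08, and 62.6 against 17.4 CPM. For Grid1 they were Arpp21 (0.69), Cort (0.58), and Lgi2 (0.56), and all 3 values are below 2-fold. For Nrxn2 they were Fxyd7 (1.33), Phgdh (1.24), and Ildr2 (1.17), and for Nrxn3 Phgdh (1.37), Ildr2 (1.28), and Reln (1.26). Both neurexin comparisons rest on fewer and shallower cells without the gene. Those without Nrxn2 numbered 372, 230, and 146, with a median of 4109, 2388.5, and 1862.5 UMIs against 6015, 4156, and 4722 in those with it. Those without Nrxn3 numbered 36, 38, and 205, with 3449.5, 2393, and 2353 UMIs against 5841, 3892.5, and 4766. Cbln1, C1ql1, and C1ql3 were in fewer than 50 cells of at least 1 library and were not ranked.

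The 9 related genes gave more of the pathway. Among them the ligands Cbln3, C1ql2, and C1ql4 held at most 5 UMIs in either group of any library. Of the 6 with at least 10 UMIs, 0, 1, and 1 were over 2-fold higher in the Nos1 cells (Khdrbs2 at P1 and P5), and 0, 0, and 1 were over 2-fold lower (Khdrbs3 at P5). Of all genes, 6.45%, 4.33%, and 4.22% were higher and 8.69%, 3.72%, and 7.08% lower. The median log2 ratio was −0.07, −0.10, and −0.13, and over all genes −0.05, −0.03, and −0.07. With so few related genes these counts do not set them apart.

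Khdrbs2 encodes SLM1, 1 of the STAR proteins that control neurexin splice site 4. It was at 82.5 against 78.8, 88.9 against 28.2, and 57.0 against 14.7 CPM, with log2 ratios of 0.06, 1.62 (1.36–1.95), and 1.89 (1.58–2.33). Excitatory cells held 145, 66.5, and 89.9 CPM. Without the Nos1 cells of the excitatory rule the Nos1 level was 39.0, 93.3, and 56.8 CPM, and the ratios were −0.996 (−1.82 to −0.31), 1.69 (1.43–2.02), and 1.88 (1.58–2.32), so the direction at E16.5 turned. In the Lhx6 cells Khdrbs2 was lower at P5 than at E16.5, with a log2 ratio of −2.35 (−2.69 to −2.17). Khdrbs3 (SLM2) was lower in the Nos1 cells, at −0.30, −0.63, and −1.23 (−1.47 to −1.03), and at −0.64, −0.78, and −1.24 without those cells, and Khdrbs1 (Sam68) lay between −0.27 and 0.02.

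The C1q-like receptor gene Adgrb3 had log2 ratios of −0.21, −0.07, and 0.21. Neo1 and Dcc, netrin receptors that also bind Cbln4, gave 0.54, 0.01, and −0.27, and 0.62, −0.63, and −0.87. Without the excitatory Nos1 cells the E16.5 values were 0.08 (−0.29 to 0.44) for Adgrb3, 0.08 (−0.58 to 0.68) for Neo1, and −1.23 (−4.45 to 0.47, from 2 UMIs) for Dcc. The sign of Adgrb3 and Dcc changed, but within counting error. With the excitatory cells kept, their E16.5 intervals were −0.55 to 0.11 and −0.31 to 1.49, which also include 0.

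**Figure D5:**
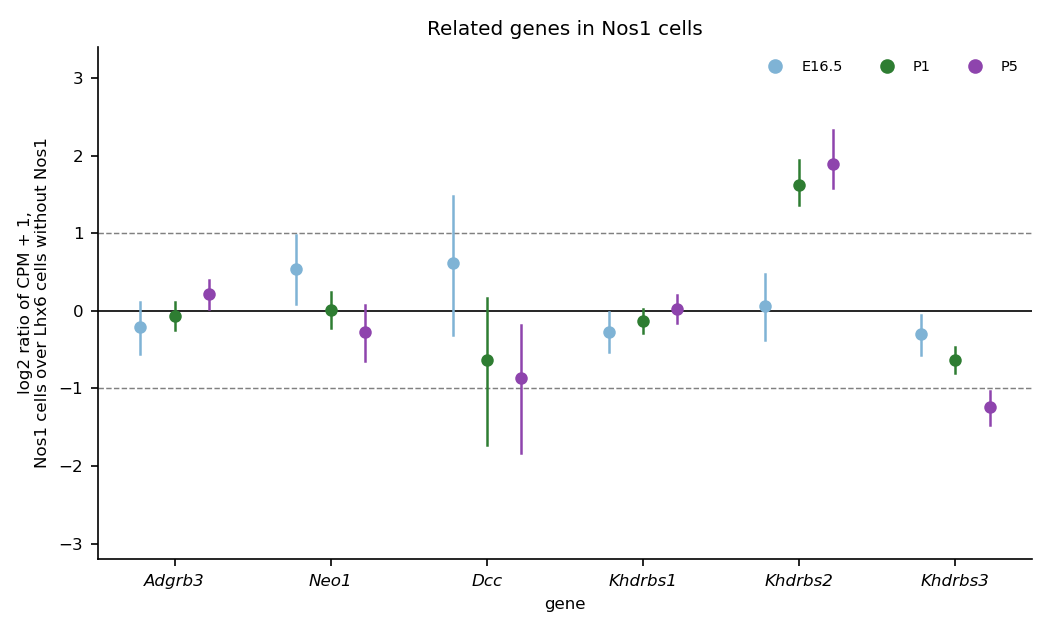
Log2 ratio of CPM + 1 in Nos1 cells over Lhx6 cells without Nos1 for the 6 related genes with at least 10 UMIs in each library (x axis), by library (colour); bars are exact 95% intervals of the plain count ratio and dashed lines mark 2-fold. Khdrbs2 lies near 0 at E16.5 and above 2-fold at P1 (1.62) and P5 (1.89).

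In the build GRCm38 with the annotation GENCODE M21, Cbln4 lies on chromosome 2 from 172036233 to 172043466 on the minus strand, and C1ql3 on the same chromosome from 13003457 to 13011806, also on the minus strand. Cbln1 lies on chromosome 8 from 87468405 to 87472609 and C1ql1 on chromosome 11 from 102939264 to 102946688. These ligand genes span 7.23, 8.35, 4.21, and 7.43 kb. Grid1 (chromosome 14, 34820108 to 35583379), Nrxn2 (chromosome 19, 6418731 to 6544169), and Nrxn3 (chromosome 12, 88722876 to 90334935) span 763, 125, and 1612 kb.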

How the data were processed

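Single-cell 3′ RNA was measured in 3 libraries, 1 per stage. The authors aligned reads to GRCm38 with STAR in Cell Ranger, version 3.1.0 at E16.5 and P5 and 3.0.2 at P1 per the file headers, and deposited raw UMI counts for 31053 genes and 12324 cell barcodes. Cells with over 700 genes and under 10% mitochondrial UMIs were kept. Each group's UMIs per gene were added up and scaled by the total of that group (CPM). Exact Poisson, Clopper-Pearson, and count-ratio intervals at 95% came from scipy 1.17.1, with pandas 2.3.3 and Python 3.11.15. A pseudocount of 1 CPM was added to ratios, genes with under 10 UMIs were not called, and 2-fold was the size named. No test was made: each stage had 1 library, and the cell groups were compared within each library. No doublet caller was run, and leaving out the top 5% of cells by UMIs was an alternative. Thinning drew 2000 UMIs per cell and left out shallower cells, 337, 673, and 537 by library. The ratio script was tested on simulated data.

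The genes, the 9 related genes, and the 17 markers were chosen with earlier results of these data known. Named genes were all members and related genes, plus, for each member with at least 50 positive cells in every library, the 3 genes with the largest lowest ratio, among genes with at least 30 UMIs in every library, leaving out mitochondrial, ribosomal, and unnamed genes. Some genes of the pathway are not reported here.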

Additional observations from a re-analysis of the deposited data

How the results depend on the processing

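No paired analysis was possible because no result comes from a test and the labels pair no samples across stages; the cell groups were compared within each library. Cbln2 stayed over 2-fold higher in the Nos1 cells in every setting run. Of 330 values for single genes between Nos1 and Lhx6 cells, 288 stayed inside the interval of the reported value, 41 left it, and 1 reversed, meaning a change of sign where that interval excluded 0 (C1ql3 at P1, −0.46 without excitatory Nos1 cells). A further 10 changed sign where it included 0. Of 299 stage values 5 reversed and 3 changed sign in that other way. The log2 ratio of Cbln2 from E16.5 to P1 was 0.086 with over 1000 genes and under 5% mitochondrial UMIs, 0.34 after thinning, and 0.59 in all kept cells, where C1ql3 had 0.55 from E16.5 to P1 and −0.40 from P1 to P5. The number of genes over 2-fold lower in Nos1 cells at P5 was 1, but 2 with the stricter cell filter, without the top 5% of cells, with at least 2 Nos1 UMIs, with the mean of per-cell CPM, with Lhx6 required, and without excitatory Nos1 cells. It was 3 with a pseudocount of 0.1 CPM or all cells without Nos1 as comparison, and 0 with 10 CPM. The share of all genes lower at P5 ran from 1.65% with 10 CPM to 9.66% with at least 2 Nos1 UMIs, against 7.08% in the main setting. A changed count therefore does not by itself describe the list. At E16.5 the number lower was 3 in place of 2 with at least 2 Nos1 UMIs, and 1 without the top 5%, with 10 CPM, with Lhx6 required, after thinning, and without excitatory cells, and the number higher was 2 in place of 3 in these settings other than 10 CPM. The share of all genes lower was 16.4% with at least 2 Nos1 UMIs and 24.4% after thinning, against 8.69% in the main setting. The share higher ran from 1.76% with 10 CPM to 10.4% after thinning. At P1 the number higher was 1 in place of 2 without the top 5%, with at least 2 Nos1 UMIs, with Lhx6 required, after thinning, and without excitatory cells, and the number lower was 1 in place of 0 with at least 2 Nos1 UMIs, with Lhx6 required, and without excitatory cells. The share of all genes at P1 ran from 1.32% to 5.47% higher and from 0.491% to 7.69% lower over the settings. From E16.5 to P5, 1 gene in place of 2 was higher with the median-of-ratios factor or 10 CPM, 3 were higher after thinning, and 0 in place of 1 was lower with 10 CPM or in all kept cells. Of all genes, 16.2% were higher with that factor, 8.19% with 10 CPM, and 20.0% after thinning. Lower were 5.61% with 10 CPM and 10.8% in all kept cells. The median-of-ratios factor moved the median of all genes by −0.17 for P1 over E16.5. For Cbln2 with Cbln4, the observed over expected number was 10.0, 0.548, and 0 after thinning, and 17.4, 0, and 0 with at least 2 UMIs of each gene, where only 0.598 and 0.189 cells would be expected at P1 and P5. At E16.5 it was 1.72 in the Nos1 cells and 0.879 (0.181–2.57) in the 29 cells with at least 2 Nos1 UMIs, and at P1 it was 0.430 without Nos1 and Pou3f2 cells. The settings without excitatory cells, with the Nos1 cells alone, and without Nos1 and Pou3f2 cells were chosen after seeing the data. Except where a setting's own selection of cells shows it, the cause was not tested. Cbln4 for P1 over E16.5 was 0.34 with the stricter cell filter and 0.65 with 10 CPM; for P5 over P1, C1ql1 fell inside 2-fold with at least 2 Lhx6 UMIs (0.62), the stricter filter (0.97), and 10 CPM (0.30), and Cbln1 ran from −1.38 to −0.31.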
